A study of Rattus norvegicus with 12 samples.

Results

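The genes of 5 major milk proteins, Csn1s1, Csn2, Csn3, Lalba and Wap, were followed in the corpus luteum (CL) of pregnant Wistar rats. The members were picked by gene symbol, and each was read by 1 probe set of the array, out of 14511 genes measured. The set was drawn up with the values of Csn1s1 on the AI+E2 and AI arrays known, so every member value that involves those arrays is a description without a test. All rats were pregnant, and RNA of 1 animal was hybridized to each of 12 Affymetrix Rat Gene 1.0 ST arrays. In the day 16 AI+E2 group (n = 3), rats received the aromatase inhibitor anastrozole (AI, 1 mg/kg orally) daily for 4 days from day 12 together with 10 µg of 17β-estradiol (E2) per day s.c. In the day 16 AI group (n = 3), rats received AI alone for 4 days. In the day 16 VEH group (n = 3), rats received the ethanol vehicle over the same days, and the day 12 group (n = 3) was untreated. AI was given to the whole animal, so estradiol synthesis outside the CL was exposed to it as well. The samples were whole CL, in which more cells of a type and more RNA per cell cannot be told apart.

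Milk proteins are made in bulk by the secretory epithelium of the lactating mammary gland. The caseins assemble with calcium phosphate into micelles: Csn1s1 encodes αs1-casein and Csn2 β-casein, both calcium-sensitive, and Csn3 encodes κ-casein, which coats and stabilises the micelle. Lalba encodes α-lactalbumin, a relative of lysozyme that acts as the regulatory subunit of lactose synthase, and Wap encodes whey acidic protein, a secreted protein with four-disulfide core domains. In the mammary gland, casein genes are switched on by prolactin through its receptor (Prlr), the kinase Jak2 and the transcription factor Stat5, with glucocorticoid as a partner signal. The rat CL is itself a target of prolactin and of placental lactogens, which bind the same receptor and maintain progesterone secretion.

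Upstream sequences are shown because Stat5 is the best-known link between prolactin and casein genes. In RefSeq promoter sequences of build GRCr8 (250 bases before to 50 bases after the start of each gene), the STAT5 motif TTCNNNGAA, which reads the same on both strands, was found once in Csn1s1 and once in Csn2. It was also found once in each of the other caseins of the cluster, Csn1s2a and Csn1s2b. It was not found in the windows of Csn3, Lalba and Wap, and 8.87% of all 33469 promoters of this length held it. A match whose first base lay from -102 to -97 relative to the start, where all 4 caseins have theirs, was found in 0.161% of promoters. This stretch was set by the places found in the 4 caseins, which are among the promoters counted, so the share tests nothing about them. A palindromic estrogen response element (GGTCA, any 3 bases, TGACC, the same on both strands) was found in none of the 7 windows and in 0.0269% of all promoters. The 250 bases before the start are given 5′ to 3′ for Csn1s1 (chr14:20638850-20639099, minus strand) and Csn2 (chr14:20601574-20601823, plus strand), with the STAT5 motif in capitals:
Csn1s1: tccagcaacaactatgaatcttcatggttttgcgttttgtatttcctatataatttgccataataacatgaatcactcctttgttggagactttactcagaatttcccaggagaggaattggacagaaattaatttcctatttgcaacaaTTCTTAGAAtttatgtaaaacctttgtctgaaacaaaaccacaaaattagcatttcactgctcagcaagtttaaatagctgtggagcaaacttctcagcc
Csn2: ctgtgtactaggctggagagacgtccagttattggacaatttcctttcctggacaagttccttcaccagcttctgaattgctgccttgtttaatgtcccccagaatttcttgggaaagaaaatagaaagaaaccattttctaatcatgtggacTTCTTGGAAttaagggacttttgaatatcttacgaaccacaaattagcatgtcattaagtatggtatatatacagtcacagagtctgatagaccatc
For comparison, the 41 bases around the motif of the other 2 caseins are given in the same way, since these genes lie in the same cluster:
Csn1s2a: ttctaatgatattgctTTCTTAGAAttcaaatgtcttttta
Csn1s2b: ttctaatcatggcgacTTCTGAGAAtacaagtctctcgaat
A match to these letters is a description of the sequence and does not show that a factor was bound in the CL.

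Of the 5 milk protein genes, Csn1s1 stood far apart in CL of AI+E2 treated rats, while each of the other 4 varied by at most 0.498 over all 12 arrays. Values are RMA values, that is, normalized probe intensities on a log2 scale, on which a difference of 1 is a doubling. Csn1s1 (probe set 10776190) read 9.91, 9.81 and 10.10 in AI+E2 CL, 5.92, 5.97 and 5.61 in AI CL, 6.18, 6.80 and 6.92 in VEH CL, and 5.30, 5.74 and 5.47 in day 12 CL. All 3 AI+E2 arrays were thus above all others, the VEH arrays lay above those of AI and day 12, and the AI and day 12 arrays overlapped. The group means were 9.94 ± 0.15 in AI+E2, 5.83 ± 0.20 in AI, 6.63 ± 0.40 in VEH and 5.50 ± 0.22 in day 12 CL (SD, n = 3 each). VEH CL had the widest spread of the 4 groups for this gene.

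**Figure D1:**
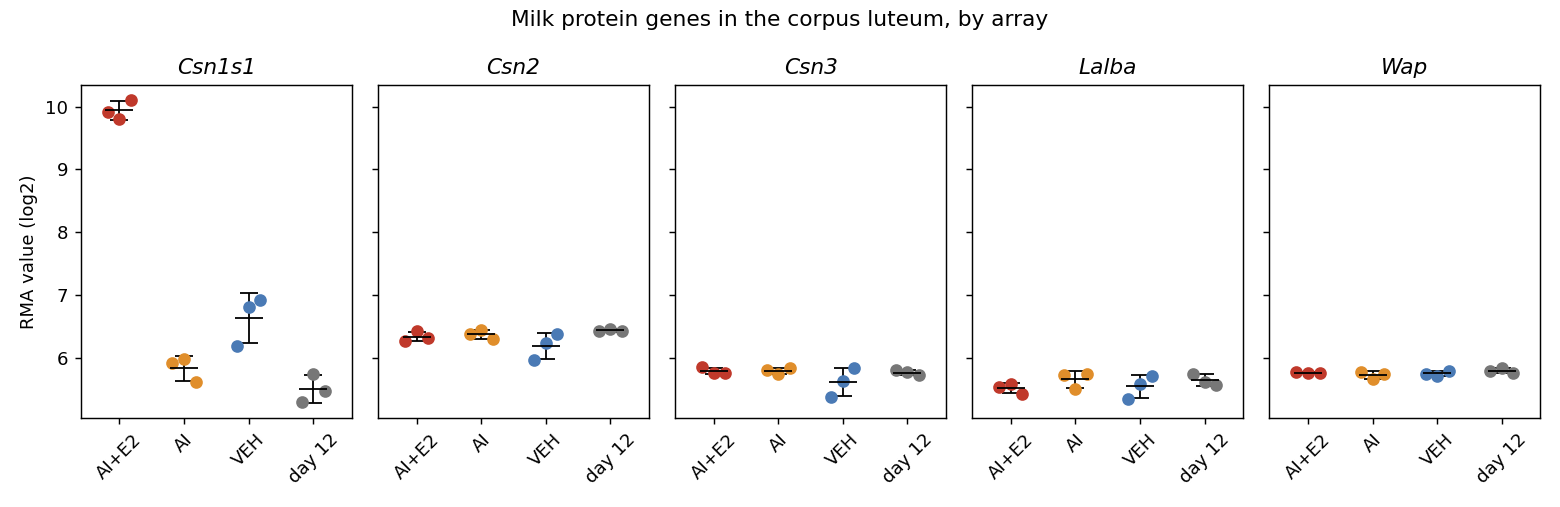
RMA values (log2, y axis) of the 5 milk protein genes on each array (points), with the group mean and SD (black lines) for AI+E2, AI, VEH and day 12 CL (n = 3 each, x axis). Csn1s1 lies between 9.81 and 10.10 in AI+E2 CL and at 6.92 or below elsewhere, and the other 4 genes lie between 5.35 and 6.47 on every array.

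Csn2 (probe set 10771893) read 6.27, 6.42 and 6.32 in AI+E2 CL, 6.38, 6.44 and 6.31 in AI CL, 5.97, 6.24 and 6.37 in VEH CL, and 6.42, 6.47 and 6.42 in day 12 CL. The arrays of AI+E2, AI and VEH overlapped, and those of VEH lay just below those of day 12. Csn3 (probe set 10776133) read 5.85, 5.76 and 5.75 in AI+E2 CL, 5.80, 5.74 and 5.83 in AI CL, 5.38, 5.64 and 5.83 in VEH CL, and 5.80, 5.77 and 5.72 in day 12 CL. All 4 groups of this gene overlapped, and VEH again had the widest spread. Lalba (probe set 10906857) read 5.54, 5.58 and 5.43 in AI+E2 CL, 5.73, 5.50 and 5.75 in AI CL, 5.35, 5.58 and 5.70 in VEH CL, and 5.75, 5.61 and 5.56 in day 12 CL. Its groups overlapped as well. Wap (probe set 10778379) read 5.77, 5.76 and 5.76 in AI+E2 CL, 5.78, 5.66 and 5.74 in AI CL, 5.75, 5.71 and 5.80 in VEH CL, and 5.79, 5.84 and 5.76 in day 12 CL. It varied least of the 5 genes, by 0.181 over the 12 arrays, against 4.80 for Csn1s1. The first VEH array was the lowest of its group for 4 of the 5 genes, Csn1s1 included. Over all genes its median deviation from the VEH mean was 0.0047, and over the dimmest 25% of genes it was -0.025.

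The signal of most of these genes was low. The 12 array medians lay between 6.506 and 6.563, and the mean of Csn2, Csn3, Lalba and Wap fell below this at the 36.2, 21.9, 18.6 and 22.4 percentile of the 14511 genes. Csn1s1 stood at the 52.8 percentile on average over the 12 arrays. With the 25% of genes of lowest mean signal left out, 2 of the 5 members (Csn1s1 and Csn2) remained, and with the lower 50% left out, Csn1s1 alone. Csn1s1 owed its place in this filter to the AI+E2 arrays, where its mean was 9.94. Its means were 5.83 in AI, 6.63 in VEH and 5.50 in day 12 CL, beside 6.37, 6.19 and 6.44 for Csn2. Detection calls were not used here, so whether the values of the dim genes lie above background was not determined. A dim probe set can also understate a difference.

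Csn1s1 was higher in AI+E2 CL than in AI CL by 4.11 ± 0.16 on the log2 scale (SE, 95% interval 3.76 to 4.46), which is 17.2-fold, the highest difference of all 14511 genes. The lowest AI+E2 array lay 3.84 above the highest AI array. Csn1s1 was the 1 of 5 members whose arrays did not overlap in this comparison, against 31.3% of all genes. The differences of the other members were -0.035 ± 0.085 for Csn2, -0.0051 ± 0.087 for Csn3, -0.15 ± 0.091 for Lalba and 0.040 ± 0.054 for Wap (SE). Their 95% intervals reached no further than -0.34 on the low side, for Lalba, and 0.18 on the high side, for Csn3. The median over all genes was -0.022.

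Against VEH, Csn1s1 was higher in AI+E2 CL by 3.31 ± 0.16 (SE), or 9.90-fold, the second-highest difference on the array after that of Akr1c3. Against day 12, it was higher in AI+E2 CL by 4.44 ± 0.16, or 21.7-fold, again the highest of all genes. In both comparisons it was the 1 of 5 members without overlap, where 29.4% of all genes did not overlap in AI+E2 against VEH and 30.3% in AI+E2 against day 12. The AI+E2 level thus lay above both the VEH and the day 12 level, and not between them. These comparisons share the AI+E2 arrays with the one above. The other 4 members differed by -0.030 (Lalba) to 0.17 (Csn3) in AI+E2 against VEH, and by -0.13 (Lalba) to 0.024 (Csn3) in AI+E2 against day 12.

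In AI CL, Csn1s1 was lower than in VEH CL by 0.80 on the log2 scale, with a value of -0.80 ± 0.16 (SE, 95% interval -1.15 to -0.45), or 1.74-fold lower. It stood at place 145 from the lowest difference of all genes, and the highest AI array lay 0.21 below the lowest VEH array. With 1 array left out, the difference ran from -1.03, without the first VEH array, to -0.66, without the third VEH array. Of the 5 members, 1 did not overlap, against 31.4% of all genes. Csn2, Csn3 and Lalba differed by 0.18 ± 0.085, 0.18 ± 0.087 and 0.12 ± 0.091 in AI against VEH, and Wap by -0.029 ± 0.054 (SE), all with overlapping arrays. In AI against day 12, Csn1s1 differed by 0.33 ± 0.16, and 0 of 5 members were without overlap, where 20.8% of all genes were.

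The comparison of VEH with day 12 holds neither AI+E2 nor AI arrays, and here the members were tested. The set was proposed with results of all arrays known and the spread was estimated over all 12, so the p-values are not independent of that choice. The day 12 rats were untreated, so day and vehicle cannot be told apart. Csn1s1 rose in VEH CL against day 12 CL by 1.13 ± 0.16 (SE, 95% interval 0.78 to 1.48), or 2.19-fold, with an adjusted p of 0.000339 (limma). It was place 31 from the highest of all genes, and all 3 VEH arrays lay above all 3 day 12 arrays by at least 0.44. Csn1s1 was the 1 member of 5 that was called in this comparison, where 10.1% of all genes were called and 6.91% were called higher. With the methods' t-test in place of limma, the adjusted p was 0.202. Csn2 was lower in VEH CL by 0.24 without passing the test (-0.24 ± 0.085, SE, 95% interval -0.42 to -0.060, adjusted p = 0.093), although its arrays did not overlap. It passed when the third VEH array was left out (-0.33, adjusted p = 0.0212). Together, 2 of 5 members did not overlap, against 24.3% of all genes. Csn3 differed by -0.15 ± 0.087 (adjusted p = 0.341), Lalba by -0.097 ± 0.091 (adjusted p = 0.578) and Wap by -0.042 ± 0.054 (adjusted p = 0.693). The interval of Csn3 ran from -0.33 to 0.038, that of Lalba from -0.29 to 0.098 and that of Wap from -0.16 to 0.074.

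Over the 12 arrays the other members did not track Csn1s1. Pearson's r with Csn1s1 was -0.079 for Csn2, 0.16 for Csn3, -0.40 for Lalba and 0.023 for Wap. These values describe 12 arrays of 4 groups in which the AI+E2 arrays dominate the range of Csn1s1.

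Csn1s1, Csn2 and Csn3 lie in 1 cluster on chromosome 14, where Csn2 is the direct neighbour of Csn1s1. Wap is on the same chromosome outside the cluster, and Lalba is on chromosome 7. In the gene order of RefSeq, 20 genes run from 5 genes before Csn3 to 5 genes past Csn1s1, and 16 of them were measured. None of the 13 measured non-members passed the limma test in any of the 4 comparisons, where 10.1% to 16.9% of all genes did. At an unadjusted p under 0.05, 1 of the 13 did in VEH against day 12 and 0 in the other comparisons, and the methods' t-test called 0 at either threshold. In AI+E2 against AI their differences ran from -0.096 to 0.050, with a median of -0.034, beside -0.022 for all genes. Csn1s2a and Csn1s2b, which encode further calcium-sensitive caseins, averaged 5.68 ± 0.024 and 4.66 ± 0.010 in AI+E2 CL, against 5.67 ± 0.026 and 4.72 ± 0.043 in AI CL (SD, n = 3). Sult1e1, the estrogen sulfotransferase beyond Csn1s1, averaged 4.32 ± 0.044 in AI+E2 CL and 4.35 ± 0.081 in AI CL (adjusted p = 0.76). The lowest of the differences was that of the pseudogene Dzip1-ps1 (-0.096 ± 0.080, SE, adjusted p = 0.519). The genes between and around the caseins with roles outside milk were as flat: Odam, of tooth enamel, and Stath, a statherin, differed by 0.018 (adjusted p = 0.892) and -0.026 (adjusted p = 0.81). The difference in Csn1s1 was not accompanied by a called difference in any of these 13 neighbours. Csn2 and Csn3 were not tested in AI+E2 against AI. The group means of the 13 genes were at most 5.91 (Dzip1-ps1), below the array medians of 6.506 to 6.563. Whether these genes lie above background was not determined, and a dim probe set can understate a difference.

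**Figure D2:**
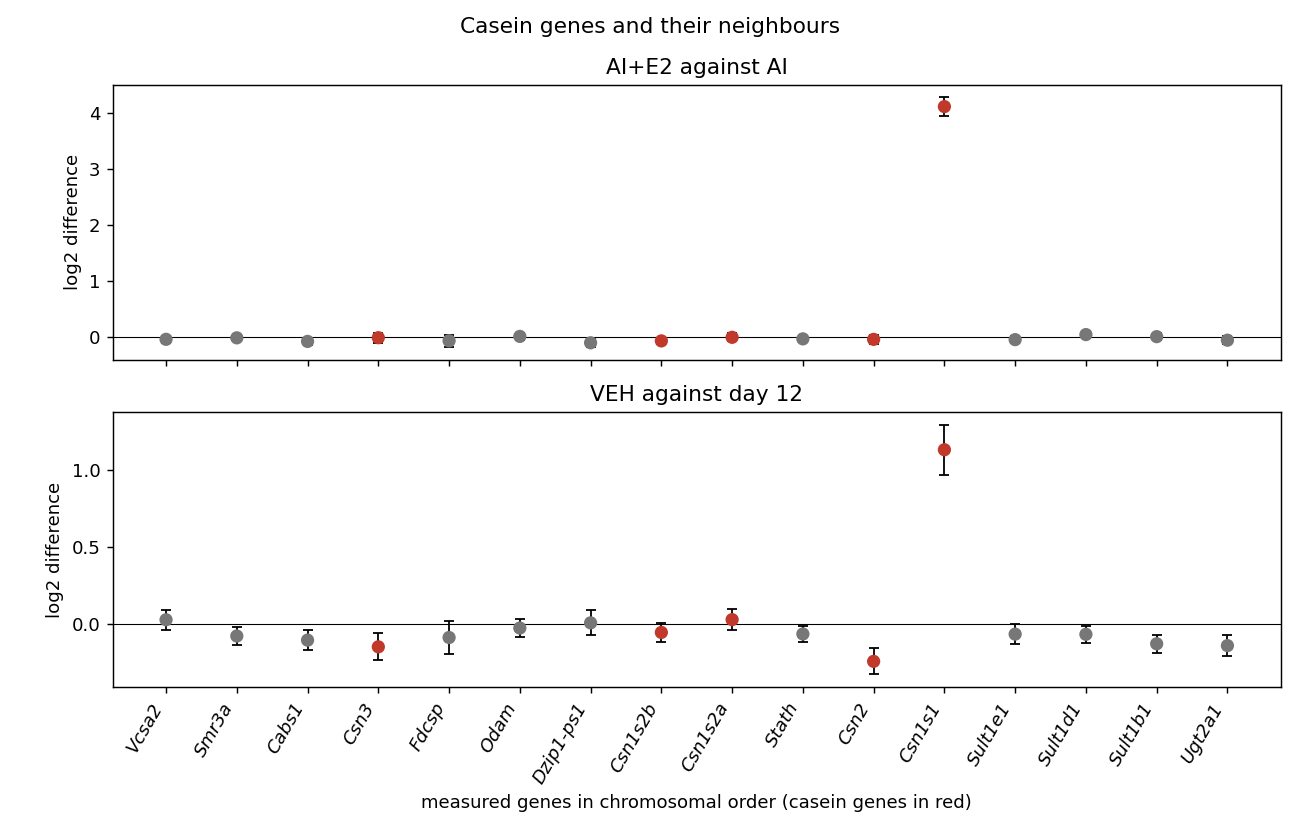
Log2 differences (y axis, with SE) of the 16 measured genes of the casein neighbourhood in chromosomal order (x axis, casein genes in red), for AI+E2 against AI (top) and VEH against day 12 (bottom, on its own scale). Csn1s1 is at 4.11 in the top panel and 1.13 in the bottom one, and the other genes lie near 0, with Csn2 at -0.24 in the bottom panel.

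Genes of prolactin receptor signalling were called in every comparison, and in both directions except in AI+E2 against AI. All 15 listed genes were measured. Between AI+E2 and AI CL, 3 of them rose and 0 fell, where 12.8% of all genes were called in either direction. In AI against VEH, 1 rose and 6 fell (16.9% of all genes called). In AI+E2 against VEH, 4 rose and 5 fell (13.0%). In VEH against day 12, 2 rose and 1 fell (10.1%). The medians of the list were -0.0096, -0.034, 0.00 and 0.017 in the order just given, close to the medians of all genes at -0.022, 0.013, -0.0063 and -0.018. The list was drawn up with earlier results of these data known. It includes Ghr, the receptor of growth hormone and not of prolactin. Ghr was among the calls in each comparison except AI+E2 against VEH.

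Prlr, the prolactin receptor, averaged 10.75 ± 0.087 in AI+E2 CL and 10.16 ± 0.068 in AI CL (SD, n = 3 each), and rose by 0.59 ± 0.066 (SE, adjusted p = 1.65e-05). It fell in AI CL against VEH CL, where it averaged 10.47 ± 0.046 (-0.31 ± 0.066, adjusted p = 0.00357). It rose in AI+E2 against VEH by 0.28 (adjusted p = 0.00901), a call lost without the third AI+E2 array (adjusted p = 0.0517). In VEH against day 12 its difference was -0.18 ± 0.066 (adjusted p = 0.109), while Csn1s1 rose there. Ghr, the growth hormone receptor, which also signals through Jak2 and Stat5, moved further: it rose by 1.29 ± 0.092 in AI+E2 against AI (adjusted p = 1.63e-07), fell by 1.13 in AI against VEH (adjusted p = 4.21e-07) and rose by 0.77 in VEH against day 12 (adjusted p = 6.43e-05). Its levels were 8.25 ± 0.080 in AI+E2, 6.96 ± 0.18 in AI, 8.09 ± 0.040 in VEH and 7.32 ± 0.17 in day 12 CL (SD). Ghr in AI+E2 CL thus stood near its VEH level, whereas Csn1s1 stood 3.31 above it.

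The transducers showed another order. Stat5a averaged 6.53 ± 0.021 in AI+E2 CL and 6.53 ± 0.15 in AI CL (SD), a difference of -0.0020 (adjusted p = 0.991), and Stat5b differed by -0.0096 (adjusted p = 0.965). Against VEH, Stat5b fell in AI+E2 CL by 0.46 (adjusted p = 0.00374) and in AI CL by 0.45 (adjusted p = 0.00318). Stat5a fell by 0.30 in both of these comparisons (adjusted p = 0.0115 and 0.00924), calls that were lost without the second VEH array (adjusted p = 0.0605 and 0.0508). Jak2 differed by 0.24 ± 0.090 in AI+E2 against AI (adjusted p = 0.106) and fell by 0.43 in VEH against day 12 (adjusted p = 0.00637). The mRNA of these genes does not report on their phosphorylation, which is how they carry the signal.

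Of the inhibitors of the pathway, Cish, which Stat5 itself induces, rose by 0.41 ± 0.11 in AI+E2 against AI (8.58 ± 0.11 in AI+E2 CL and 8.17 ± 0.049 in AI CL, SD, adjusted p = 0.0254). The call was lost without any 1 of 4 of the 6 arrays, with adjusted p up to 0.117. Socs2 differed by -0.17 ± 0.083 in the same comparison (adjusted p = 0.225). Socs1 rose by 0.56 in AI+E2 against VEH (adjusted p = 0.000813), while Socs3 fell by 0.59 there (adjusted p = 0.000743) and by 0.49 in AI against VEH (adjusted p = 0.00253). Ptpn1, a phosphatase that acts on Jak2, fell by 0.38 in AI+E2 against VEH (adjusted p = 0.000501) and by 0.51 in AI against VEH (adjusted p = 2.05e-05). The inhibitors thus did not move in 1 direction.

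**Figure D3:**
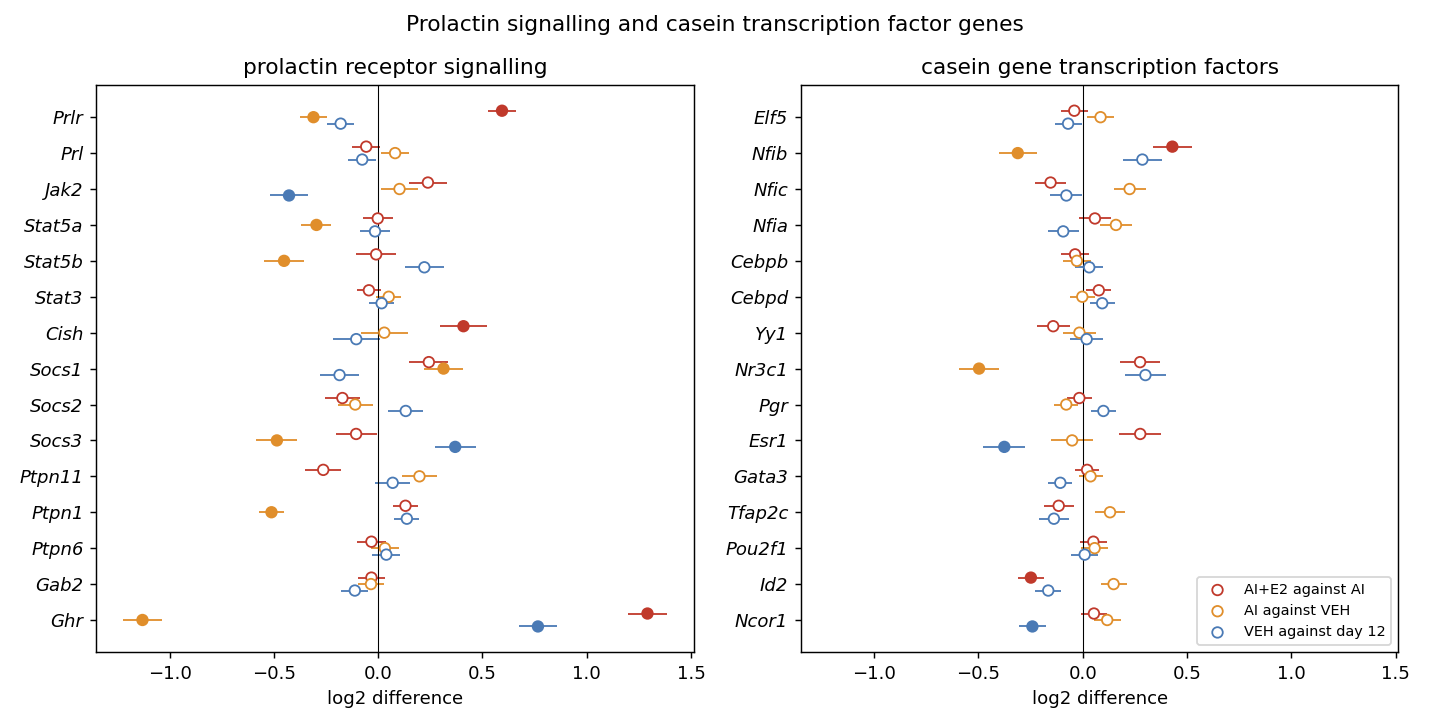
Log2 differences (x axis, with SE) of the 15 prolactin receptor signalling genes (left) and the 15 listed casein gene transcription factors and cofactors (right) in AI+E2 against AI (red), AI against VEH (orange) and VEH against day 12 (blue). Filled points passed an adjusted p of 0.05, neighbouring comparisons share arrays, and Ghr and Prlr have the largest differences of AI+E2 against AI at 1.29 and 0.59.

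A list of 15 transcription factors and cofactors linked to casein genes was measured. Nfib rose and Id2 fell in AI+E2 against AI, where 12.8% of all genes were called. In AI against VEH 2 fell (16.9%), none was called in AI+E2 against VEH (13.0%), and 2 fell in VEH against day 12 (10.1%). In AI+E2 against VEH, 4 of the 15 had an unadjusted p under 0.05 with limma and 3 with the methods' t-test, which also called 0 after adjustment. Elf5, a factor of milk-secreting alveolar cells, read 5.77 ± 0.085 in AI+E2, 5.81 ± 0.082 in AI, 5.72 ± 0.063 in VEH and 5.79 ± 0.056 in day 12 CL (SD), as low as Wap. Nfib, a nuclear factor I protein, rose by 0.43 ± 0.092 in AI+E2 against AI (adjusted p = 0.00513), and Id2, an inhibitor of helix-loop-helix factors, fell by 0.25 (adjusted p = 0.0143). Nr3c1, the glucocorticoid receptor, fell by 0.50 in AI against VEH (adjusted p = 0.00181). Esr1, the estrogen receptor α gene, averaged 9.39 ± 0.14 in AI+E2 CL and 9.11 ± 0.10 in AI CL (SD, adjusted p = 0.0965). These values are from the probe set of higher mean of the 2 for Esr1. Esr1 differed by -0.051 in AI against VEH (adjusted p = 0.797) and by 0.22 in AI+E2 against VEH (adjusted p = 0.192). It fell by 0.38 in VEH against day 12 (adjusted p = 0.0281), a call lost without any 1 of 4 of the 6 arrays (adjusted p up to 0.122). The Id2 call was lost without the first AI or the third AI+E2 array (adjusted p = 0.0659 and 0.0768).

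Other genes of milk and lactation were called in both directions. Of 20 listed genes, 18 were measured. Of these, 4 were called higher and 1 lower in AI+E2 against AI. In AI against VEH, 3 were called higher and 1 lower. The AI+E2 against VEH comparison called 5 higher and 1 lower. In VEH against day 12, 1 was called higher and 2 lower. The shares of all genes called were 12.8%, 16.9%, 13.0% and 10.1%. The list medians were -0.012, 0.064, 0.028 and -0.056, and those of all genes -0.022, 0.013, -0.0063 and -0.018. Mfge8, a protein of the milk fat globule membrane that is also made outside the mammary gland, averaged 10.77 ± 0.049 in AI+E2 CL and 9.96 ± 0.052 in AI CL (SD) and rose by 0.81 ± 0.076 (SE, adjusted p = 3.06e-06). It was the 1 of the 5 genes called in AI+E2 against AI that kept its call whichever array was left out. Folr1, a folate receptor, rose by 0.83 ± 0.20 (adjusted p = 0.012), but not without the first or the second AI array (adjusted p = 0.0702 and 0.0555). Without the second AI array, 1 gene of this list was called in all. Btn1a1, the butyrophilin of the milk fat globule, averaged 6.02 ± 0.058 in AI CL and 5.62 ± 0.17 in VEH CL (SD) and rose by 0.40 (adjusted p = 0.00209). Plin2, a coat protein of lipid droplets, fell by 0.82 in AI+E2 against VEH (adjusted p = 0.000123) and by 0.83 in AI against VEH (adjusted p = 7.22e-05), and rose by 0.65 in VEH against day 12 (adjusted p = 0.00125).

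Genes that prolactin is known to regulate in the rat CL were set beside Csn1s1 as well. Of 10 listed, 8 were measured. Cyp19a1 and Hsd3b1 had no probe set with that 1 symbol in the annotation used, although the paper lists an array value for Cyp19a1. The list was not split by whether prolactin raises or lowers a gene, so its counts and medians do not show a prolactin response. Of the 8 measured, 2 were called higher and 1 lower in AI+E2 against AI. In AI against VEH, 3 were called higher and 2 lower, and 3 were called higher in AI+E2 against VEH. In VEH against day 12, 1 was called in each direction. The shares of all genes called were 12.8%, 16.9%, 13.0% and 10.1%. The list medians were 0.12, 0.090, 0.11 and -0.0096, and those of all genes -0.022, 0.013, -0.0063 and -0.018. A2m, the protease inhibitor α2-macroglobulin, averaged 12.28 ± 0.052 in AI+E2 CL and 11.84 ± 0.014 in AI CL (SD), a rise of 0.45 ± 0.058 (SE, adjusted p = 7.16e-05). It fell by 0.39 in AI against VEH (adjusted p = 0.000179). Akr1c3, an aldo-keto reductase gene whose signal may be shared with close relatives, rose by 2.52 ± 0.24 in AI+E2 against AI (adjusted p = 4.27e-06) and by 4.14 in AI+E2 against VEH (adjusted p = 2.82e-08). Unlike Csn1s1, it was higher in AI CL than in VEH CL by 1.63 (adjusted p = 0.000203), and it fell by 2.75 in VEH against day 12 (adjusted p = 3.18e-06). Igfbp5, a binding protein of insulin-like growth factors, fell by 0.75 in AI+E2 against AI (adjusted p = 3.91e-05) and rose by 1.25 in AI against VEH (adjusted p = 1.38e-07).

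The relatives of Wap and of Lalba were followed as well. Of 18 genes of the WAP four-disulfide core family, 10 were measured. Both in AI+E2 against AI and in AI against VEH, 1 was called in each direction. In AI+E2 against VEH 1 was called lower, and in VEH against day 12 2 were called higher. Of all genes, 12.8% were called in AI+E2 against AI and 16.9% in AI against VEH. The shares were 13.0% in AI+E2 against VEH and 10.1% in VEH against day 12. Slpi, the secretory leukocyte protease inhibitor, averaged 8.89 ± 0.11 in AI+E2 CL and 7.82 ± 0.25 in AI CL (SD) and rose by 1.07 ± 0.11 (SE, adjusted p = 1.18e-05). It fell by 0.87 in AI against VEH (adjusted p = 5.99e-05) and rose by 0.76 in VEH against day 12 (adjusted p = 0.000474), so that its calls ran in the directions of the Csn1s1 differences. Its AI+E2 level was 8.89, beside 8.69 ± 0.17 in VEH CL. Eppin, a further protease inhibitor of the family, rose by 0.42 in AI against VEH (adjusted p = 0.00177). Wfdc1 fell by 0.30 in AI+E2 against AI (adjusted p = 0.0254), a call lost without any 1 of 5 of the 6 arrays. Of 9 lysozyme genes, 7 were measured, and 1 was called in each comparison. Lyz2, a lysozyme of macrophages, fell by 0.27 in AI+E2 against AI (adjusted p = 0.00709), and Lyc2 fell by 0.52 in AI+E2 against VEH (adjusted p = 0.0065), fell by 0.58 in AI against VEH (adjusted p = 0.00203) and rose by 0.66 in VEH against day 12 (adjusted p = 0.00156).

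Markers of epithelia and of placental cells, which could carry milk protein transcripts, were measured beside Csn1s1. Of all genes, 12.8% were called in AI+E2 against AI and 16.9% in AI against VEH. The shares were 13.0% in AI+E2 against VEH and 10.1% in VEH against day 12. Of 13 measured markers of mammary epithelium, 0 passed the limma test in AI+E2 against AI (3 at an unadjusted p under 0.05, and 0 adjusted and 1 unadjusted with the methods' t-test), and their mean level per array was 6.21 to 6.27 in AI+E2 CL and 6.22 to 6.31 in AI CL. Of these 3, Ltf, the iron-binding protein lactoferrin, read 5.75 ± 0.11 in AI+E2 CL and 5.999 ± 0.11 in AI CL (SD, adjusted p = 0.0792). The keratin Krt8 read 6.77 ± 0.068 in AI+E2 CL and 6.57 ± 0.11 in AI CL (SD, adjusted p = 0.0976). Trps1, a transcription factor, read 8.52 ± 0.098 in AI+E2 CL and 8.32 ± 0.15 in AI CL (SD, adjusted p = 0.19). The arrays of both groups did not overlap for Ltf and Krt8. Krt19 was the 1 marker of the list called in AI+E2 against VEH (0.21 ± 0.064, SE, adjusted p = 0.0431), and 0 were called in AI against VEH (1 unadjusted with limma and with the methods' t-test) or in VEH against day 12 (0 unadjusted with either). Of 12 markers of trophoblast and decidua, 0 were called in the 4 comparisons (at most 1 at an unadjusted p under 0.05 with limma or the methods' t-test), and 0 lay above the array median in any group. Of 9 markers of oviduct epithelium, 0 were called either (at most 1 unadjusted with limma and 0 with the methods' t-test), with a mean level per array of 5.90 to 5.97 in AI+E2 CL and 5.87 to 5.98 in AI CL.

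Luteal markers were high in all samples, but not constant. The mean of 7 genes was 11.79 to 11.83 in AI+E2 CL and 11.76 to 11.80 in AI CL. It was 11.55 to 11.58 in VEH CL and 11.65 to 11.74 in day 12 CL. With limma, AI CL differed from VEH CL in 6 of the 7 genes, 4 being higher and 2 lower. AI+E2 CL differed from VEH CL in 4, with 3 higher and 1 lower. The largest of these differences were those of Fdx1, at 1.18 for AI and 1.24 for AI+E2. Prlr alone was called (higher) between AI+E2 and AI CL, and Fdx1 alone (lower) between VEH and day 12 CL. The methods' t-test called 1 luteal gene after adjustment in each comparison except VEH against day 12, where it called 0. Endothelial markers moved with the smaller differences of Csn1s1. Of 11 measured, 10 fell in AI against VEH, where 16.9% of all genes were called, and 9 rose in VEH against day 12, where 10.1% were. The methods' t-test called 0 of the 11 after adjustment in either comparison and 9 unadjusted in each. Their mean level per array was 8.19 to 8.44 in AI, 8.73 to 8.80 in VEH and 8.29 to 8.46 in day 12 CL. In AI+E2 against AI, where Csn1s1 differed by 4.11, 1 of the 11 rose and the mean level was 8.35 to 8.43 in AI+E2 CL. Between AI+E2 and VEH CL, 6 fell. Of all genes, 12.8% were called in AI+E2 against AI and 13.0% in AI+E2 against VEH. Of 11 markers of follicular granulosa cells and oocytes, 1 rose in AI+E2 against AI, 1 rose in AI against VEH, 2 rose in AI+E2 against VEH and 3 fell in VEH against day 12. Their mean level was 6.997 to 7.026 in AI+E2, 6.89 to 7.05 in AI, 6.74 to 6.90 in VEH and 6.85 to 7.01 in day 12 CL. Of 6 markers of red blood cells, 2 fell in AI+E2 against AI, 1 fell in AI against VEH, 3 fell in AI+E2 against VEH, and 2 rose and 1 fell in VEH against day 12. Their mean level was 6.72 to 6.76 in AI+E2, 7.05 to 7.25 in AI, 7.20 to 7.49 in VEH and 6.77 to 7.15 in day 12 CL. For these last 2 lists the methods' t-test called 1 gene after adjustment, of red blood cells in AI+E2 against AI. The part of these cell types in the differences of Csn1s1 was not tested.

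The 10 genes whose values were most like those of Csn1s1, by Pearson's r over the 12 arrays, were Cdc14a, Orm1, Nrbf2, Macroh2a1, Tmem216, Fam110b, Nupr1, Rgs2, Ada and Homer2, with r of 0.98 for Cdc14a and Orm1 and 0.96 for Homer2. None of them is a milk protein gene. They were picked for following a profile that the AI+E2 arrays set, so their high values there are part of the choice. Orm1, which encodes the plasma protein orosomucoid, came nearest in size, with 8.25 ± 0.16 in AI+E2, 6.30 ± 0.15 in AI, 6.73 ± 0.42 in VEH and 6.13 ± 0.32 in day 12 CL (SD, n = 3 each). Ada, adenosine deaminase, averaged 8.71 ± 0.13 in AI+E2, 7.57 ± 0.052 in AI, 7.88 ± 0.11 in VEH and 7.40 ± 0.089 in day 12 CL. Rgs2, a regulator of G protein signalling, averaged 8.05 ± 0.14 in AI+E2, 6.98 ± 0.052 in AI, 7.05 ± 0.30 in VEH and 6.72 ± 0.13 in day 12 CL. The 10 genes were higher in AI+E2 than in AI CL by 0.55 (Fam110b) to 1.95 (Orm1), all less than the 4.11 of Csn1s1.

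Over the 9 arrays without AI+E2, r with Csn1s1 was 0.62 (Nupr1 and Tmem216) to 0.89 (Nrbf2 and Orm1) for these 10 genes. By Spearman's rank correlation, none of the 10 was among the 10 most alike, and with the dimmer 50% of genes left out 8 of the 10 remained. The 5 genes with the lowest r were Mphosph8 (-0.96), Mlxipl, Miox, Calml3 and Klhl29 (-0.95). Miox, the myo-inositol oxygenase, averaged 7.80 ± 0.15 in AI+E2, 9.10 ± 0.14 in AI, 8.79 ± 0.17 in VEH and 8.96 ± 0.067 in day 12 CL (SD), the largest difference of AI+E2 against AI among these 5 at -1.30. Mlxipl, a glucose-responsive transcription factor, averaged 7.66 ± 0.061 in AI+E2, 8.32 ± 0.074 in AI, 8.26 ± 0.25 in VEH and 8.43 ± 0.073 in day 12 CL.

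**Figure D4:**
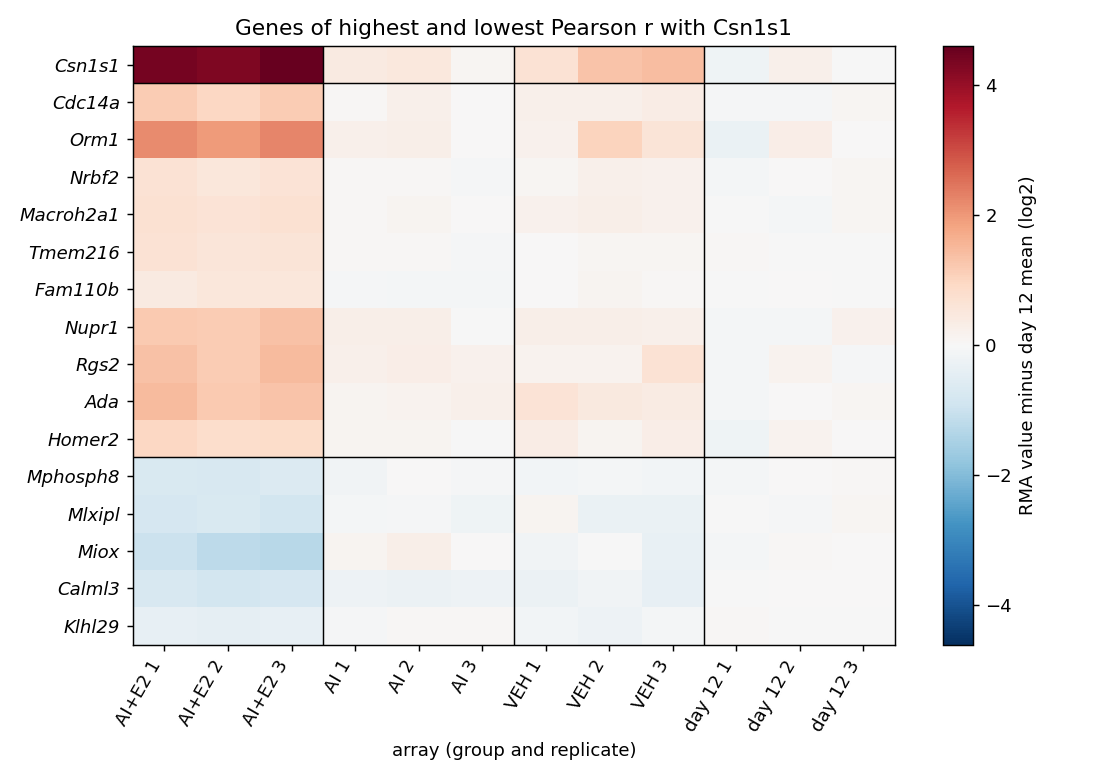
RMA values minus the day 12 mean of each gene (colour, log2) for Csn1s1, the 10 genes of highest and the 5 genes of lowest Pearson r with it (rows), on the 12 arrays (columns, AI+E2, AI, VEH and day 12). The 3 AI+E2 arrays stand apart in every row, by 1.95 against AI in Orm1 and by 4.11 in Csn1s1.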

How the data were processed

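CL RNA of 12 rats was measured on the Affymetrix Rat Gene 1.0 ST platform, 1 array per rat. The deposited values are log2 intensities of 29214 probe sets that the authors normalized by RMA in R 2.12.2. No further normalization was applied. GEO's platform annotation gave 1 symbol to 15316 probe sets, several to 317 and none to 13581. Of these, 15285 were found in the RefSeq gene table, and the probe set of highest mean was kept for each of 14511 genes. Precision is limited by 3 animals per group. limma 3.58.1 (R 4.3.3) was fitted to the 4 group means over all arrays (8 residual degrees of freedom). Benjamini-Hochberg adjustment ran over all genes, with calls at 0.05. The members and gene lists were chosen with earlier results of these data known. Named were the members, up to 4 genes per list and comparison with the smallest p, the measured neighbours, the 10 highest and 5 lowest r with Csn1s1, and Prlr, Stat5a, Stat5b, Jak2, Cish, Socs2, Elf5 and Esr1. Alternatives changed the probe set rule, a filter on dim genes, the scaling, the arrays fitted, the test and each array in turn. Scripts were tested on simulated data. Figures were drawn with matplotlib 3.10.9 (Python 3.11.15). The values carry no detection calls or scan batches, so batch was not examined.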

Additional observations from a re-analysis of the deposited data

How the results depend on the processing

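Csn1s1 kept its direction in AI+E2 against AI, AI against VEH, AI+E2 against VEH and VEH against day 12 under every alternative that gave a value. With 1 array left out, its log2 difference ran from 3.99 to 4.18, from -1.03 to -0.66, from 3.08 to 3.45 and from 0.99 to 1.36 in these 4 comparisons, with adjusted p of 1.7e-05 to 0.00321 in the last. The methods' t-test left the value at 1.13 with an adjusted p of 0.202, and the count of all genes called in VEH against day 12 fell to 57, against 1471 with limma. In that comparison Csn2 ran from -0.33 to -0.13 and passed without the third VEH array (adjusted p = 0.0212), and Lalba ran from -0.18 to 0.00046, reversed without the first VEH array (adjusted p = 0.999). Csn3, Lalba and Wap gave no value with the dimmest 25% of genes left out, nor Csn2 with 50%. Of 73 listed genes, limma called 16, 21, 20 and 13 in the 4 comparisons, beside 12.8%, 16.9%, 13.0% and 10.1% of all genes. The methods' t-test called 8, 5, 5 and 0 (19 at an unadjusted p under 0.05 in the last, against 26 with limma). Only the arrays compared gave 7 in VEH against day 12. With 1 array left out the counts ran from 10 to 14, 17 to 22, 14 to 16 and 9 to 13. Without the first AI array, 10 remained called in AI+E2 against AI. The cause of these shifts was not tested.

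Each array held RNA of 1 animal, so replicate numbers do not mark shared animals. Of 18 same-numbered pairs of arrays, 4 had deviations correlated above 0.1 (r from -0.486 to 0.339), and 0 of 12 arrays correlated best with their own number. With the number as a block, Csn1s1 differed by 1.13 in VEH against day 12 (adjusted p = 0.000454), and 15, 21, 19 and 12 listed genes were called.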
